A study of Mus musculus with 6 samples.

Results

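Kinesins are motor proteins that move along microtubules by hydrolysing ATP. In a neuron such as the retinal ganglion cell (RGC), whose axon forms the optic nerve, kinesins of several families carry vesicle precursors, mitochondria and cytoskeletal proteins from the cell body towards the axon tip, while dynein returns cargo to the cell body. Other kinesins build the mitotic spindle, align chromosomes or complete cytokinesis, and a further set works in cilia. The genes were chosen by name, as every Ensembl gene with a symbol of the form Kif followed by a number, together with *Kifc1*, *Kifc2*, *Kifc3*, *Klc1*, *Klc2* and *Klc4*. This gave 44 of the 43346 Ensembl genes in the tables. They were sorted by textbook role into 18 transport genes, 12 mitotic genes, 6 ciliary genes and 8 genes in no other class. The transport genes act in cargo transport in axons or dendrites, and are called axonal transport genes here.

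The RNA came from mouse RGC cultures transduced with 1 of 3 vectors, a control AAV encoding EGFP, a Sox11 AAV, or an AAV for Sox11 K91A, and each vector had 2 replicates. Sox11 is a transcription factor, and in Sox11 K91A the lysine that can carry the modifier SUMO is replaced by alanine. Both Sox11 vectors also encode EGFP, and the promoter that drives them is not named in the sources used here. Each well held 250000 cells purified by immunopanning for the surface protein Thy1, received 1.5 μl of AAV at 100000 vector genomes per cell 4 h after plating, and was harvested 72 h after plating. The sources disagree on the age of the cells: the RNA protocol gives embryonic day 18, the culture protocol postnatal day 2 and the names of the tables postnatal day 0. The libraries hold bulk RNA of all cells in a well, transduced or not, so fewer cells of a type and less RNA per cell cannot be told apart. Whether the replicates came from separate RGC preparations is not stated, so the p-values measure the spread between these libraries, which may be technical.

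Expected counts summed to between 27521982 and 37061718 per library. *Sox11* was raised by both vectors, with 234 and 332 CPM (counts scaled to library size) in the control libraries, 9180 and 14600 with Sox11, and 12000 and 7030 with Sox11 K91A. Its log2 fold change was 5.38 (SE 0.33, adjusted p = 0.0075) and 5.04 (SE 0.33, adjusted p = 0.0092). RGC markers were present throughout, among them *Rbpms* at 194 to 242 CPM and *Pou4f1* at 321 to 428 CPM. Markers of other cell types were detected too, among them *Gad2* of amacrine cells (20.6 to 140 CPM) and *Glul* of Müller glia (97.2 to 310 CPM). The other markers of Müller glia and astrocytes were far lower than *Glul*, with at most 3.74 CPM for *Rlbp1* and 2.34 CPM for *Sox9*. *Gfap* of astrocytes, *Tyrobp* of microglia and *Rcvrn* of photoreceptors had 0 counts in every library. Others of these types were found, with at most 33 counts for *Aif1* of microglia and 49 for *Nrl* of photoreceptors. In a principal component analysis of all genes tested, the second component, with 19.5% of the variance, set replicate 2 of the control at -50.1 and replicate 2 of Sox11 at -50, against 19.4 to 30.5 for the other 4 libraries.

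The axonal transport kinesins made up nearly all of the kinesin message of these cultures. On the scale of TPM, which divides read counts by transcript length and so allows levels of different genes to be compared, the 18 genes took 93.1% to 94.2% of the summed level of all kinesin genes. Their summed level was 4070 and 2680 TPM in the control libraries, 3610 and 3300 TPM with Sox11, and 3550 and 3510 TPM with Sox11 K91A, so the values of both vectors lay between those of the control libraries. The mitotic kinesins took 0.23% to 0.437%. Of the 44 genes, 17 had a mean of at least 10 TPM over the 6 libraries, of which 14 were transport genes and 3 (*Kif2a*, *Kifc2* and *Kifc3*) belonged to no other class, while no mitotic and no ciliary gene reached that level.

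*Klc1*, a light chain through which kinesin-1 binds its cargo, had the highest level of all 44 genes, at 1132.87 and 954.55 TPM in control, 1136.37 and 1058.67 TPM with Sox11, and 1143.47 and 1108.42 TPM with Sox11 K91A. The neuronal kinesin-1 heavy chain *Kif5a* came next at 604.67 and 321.39, then 486.28 and 354.03, then 453.11 and 484.36 TPM in the same order of groups. *Kif5c*, the other neuron-enriched heavy chain, stood at 395.55 and 263.07 TPM in control, 387.35 and 430.94 TPM with Sox11, and 387.88 and 365.12 TPM with Sox11 K91A. *Klc1* lay above *Kif5a* and *Kif5c* in every library, while the ranges of *Kif5a*, *Kif5c* and the synaptic vesicle motor *Kif1a* (245.91 to 582.25 TPM) overlapped, so that their order did not exceed the spread between libraries. Within kinesin-1, *Kif5a* gave 41.8% to 56.4%, *Kif5c* 36.9% to 50.8%, and *Kif5b*, the heavy chain found in most tissues, 6.07% to 9.66% of the summed heavy-chain TPM.

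The other transport genes ranged widely. The kinesin-3 motor *Kif1b* (136.42 to 291.97 TPM), the kinesin-2 motors *Kif3a* (mean 180.0 TPM) and *Kif3c* (165 TPM), and the kinesin-4 motor *Kif21a* (156 TPM) were abundant. *Kif1c*, *Kif13b*, *Kif16b* and *Kif17* had means between 3.65 and 6.24 TPM. Among the mitotic genes *Kifc1* was the highest, with a mean of 6.32 TPM, and *Kif14* the lowest at 0.0783 TPM. The ciliary genes had means between 1.26 TPM for *Kif24* and 3.19 TPM for *Kif7*.

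**Figure D1:**
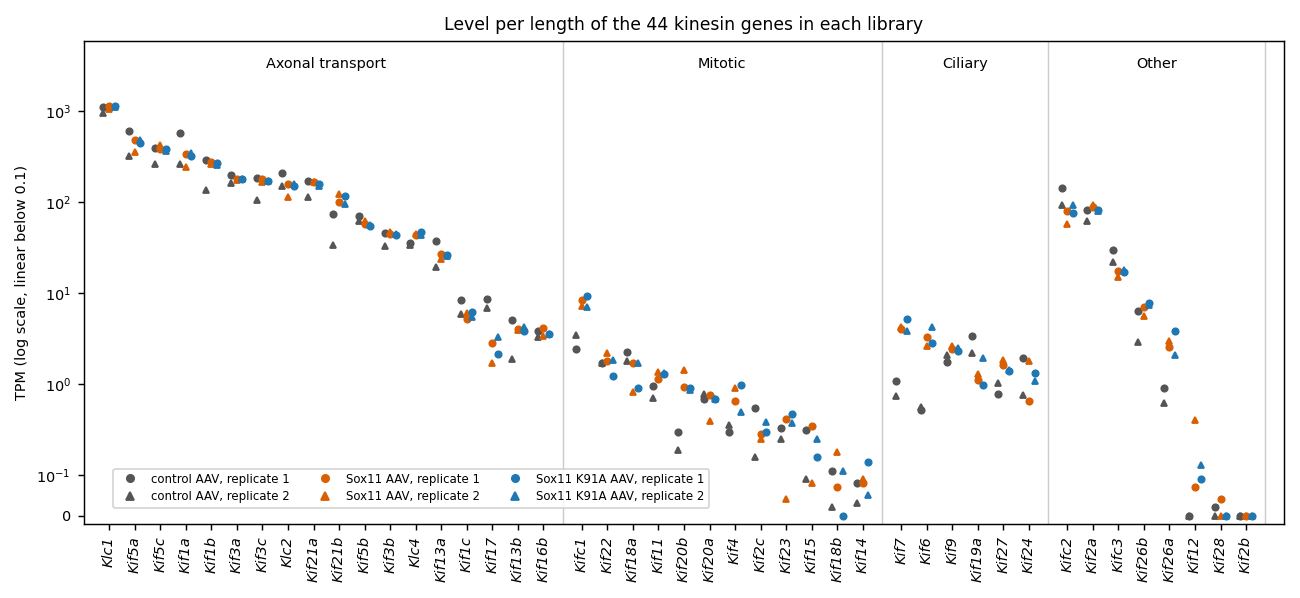
Level in TPM (y axis, logarithmic above 0.1 and linear below) of each of the 44 kinesin genes (x axis, ordered by mean within a class), with 1 point per library; colour marks the AAV and shape the replicate. The axonal transport genes reach up to 1143.47 TPM, whereas the mitotic and ciliary genes lie at or below 9.35 TPM in every library.

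Of the 44 genes, 40 passed the filter on low counts, namely all transport and ciliary genes, 11 mitotic genes and 5 others. *Kif2b* had 0 counts in every library, *Kif28* at most 2, *Kif12* at most 4 and *Kif18b* at most 9. These 4 genes had no test.

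With Sox11, 8 of the 40 genes passed the threshold of limma-voom (false discovery rate under 0.05 and fold change above 1.2), 5 higher and 3 lower than control, while 20.1% of all 15747 genes tested were called, 9.96% higher and 10.2% lower. The kinesin genes were thus called about as often as the background, and a count of this size is not a result about kinesins. *Kif7*, *Kif6*, *Kif20b*, *Kif26a* and *Kifc1* rose, and *Kif17*, *Kifc3* and *Kifc2* fell. With Sox11 K91A, 5 of the 40 passed, *Kif7*, *Kif6*, *Kif26a* and *Kifc1* higher and *Kif17* lower, beside 10.6% of all genes, 5.81% higher and 4.81% lower. At an unadjusted p under 0.05 there were 11 kinesin genes in each comparison, against 38% and 30.6% of all genes. Groups that did not overlap were common: with Sox11, 13 of the 40 kinesin genes tested lay above and 8 below both control libraries, beside 30.9% and 30.6% of all genes, and with Sox11 K91A 14 lay above and 9 below, beside 31.2% and 30.7%. Both comparisons use the same 2 control libraries, so their results are not independent of each other. The median log2 fold change of the 40 genes was 0.14 with Sox11 and 0.18 with Sox11 K91A, and over all genes 0.01 and 0.02. The median over all genes differed with transcript length. With Sox11 it was -0.25 under 1000 bases, 0.11 between 3000 and 4000 bases and 0.28 over 8000 bases. With Sox11 K91A it was -0.15, 0.09 and 0.24.

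Whether these genes passed the threshold depended on single libraries, while their log2 fold changes moved to differing degrees. With Sox11, in fits without 1 library, these ran from 1.94 to 2.34 for *Kif7* and 2.23 to 2.54 for *Kif6*. For *Kif17* they ran from -2.38 to -1.32, and for *Kifc1* from 0.98 to 1.94. In fits that left out 1 library and assumed that a lone sample varies like the others, the number of kinesin genes called with Sox11 was 11 without replicate 1 of the control, 6 without replicate 2 of the control, 7 and 0 without replicates 1 and 2 of Sox11, and 4 without either Sox11 K91A library. With Sox11 K91A it was 7 and 0 without control replicates 1 and 2, 6 and 5 without Sox11 replicates 1 and 2, and 0 and 2 without Sox11 K91A replicates 1 and 2. Where no kinesin was called, 0, 0 and 19 of all genes were. Over 16 other settings with Sox11, *Kif7* was called in 16, *Kif6* in 15, *Kif17*, *Kif20b* and *Kif26a* in 14, *Kifc1* and *Kifc3* in 13 and *Kifc2* in 11. With Sox11 K91A, *Kif7* was called in 16, *Kif6* in 15, *Kif17* and *Kif26a* in 13 and *Kifc1* in 12. These settings include no fold threshold and a fold above 1.5, which reuse the main fit. They could not remove a call, since every called kinesin gene changed by more than 1.5-fold. Also among them is a fit with the replicate pairing of the Sox11 K91A libraries crossed, chosen after seeing the data.

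Of the 6 ciliary genes, *Kif7* and *Kif6* rose with both vectors, beside 9.96% of all genes with Sox11 and 5.81% with Sox11 K91A. *Kif7*, a kinesin-4 protein that organizes the tip of the primary cilium and regulates Hedgehog signalling, had 2.33 and 1.76 CPM in control, 8.77 and 9.14 CPM with Sox11, and 11.6 and 8.68 CPM with Sox11 K91A. All 4 libraries with a Sox11 vector lay above both control libraries. The log2 fold change was 2.16 (SE 0.32, adjusted p = 0.013) for Sox11 and 2.33 (SE 0.31, adjusted p = 0.016) for Sox11 K91A. The call was lost without Sox11 replicate 2 (adjusted p = 0.077) in the first comparison, and without control replicate 2 (0.059) or Sox11 K91A replicate 1 (0.14) in the second. *Kif6*, a kinesin-9 motor, had 0.537 and 0.675 CPM in control, from 15 and 26 counts, 3.57 and 2.96 CPM with Sox11, and 2.79 and 3.7 CPM with Sox11 K91A. Here too the groups did not overlap. Its log2 fold change was 2.38 (SE 0.43, adjusted p = 0.018) and 2.36 (SE 0.43, adjusted p = 0.026). The call was lost without control replicate 2 (adjusted p = 0.063 and 0.087), without Sox11 replicate 2 for Sox11 (0.085), and without Sox11 K91A replicate 1 (0.18) or 2 (0.12) for Sox11 K91A. The other 4 ciliary genes, *Kif9*, *Kif19a*, *Kif24* and *Kif27*, had log2 fold changes between -0.98 and 0.83 that did not pass. The annotated transcripts of *Kif7* overlap the antisense gene 9330171B17Rik over 19.1% of its exonic bases, and the use of strand in counting is not stated. That gene had a log2 fold change of -1.66 (adjusted p = 0.47) and -0.25 (adjusted p = 0.93).

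Of the mitotic kinesins, *Kifc1* and *Kif20b* rose with Sox11, 2 of 11 tested (18.2%, beside 9.96% of all genes), and *Kifc1* with Sox11 K91A (9.09%, beside 5.81%). *Kifc1*, a minus-end-directed motor that focuses the spindle poles, had 1.93 and 3.81 CPM in control, 7.72 and 7.33 CPM with Sox11, and 10.1 and 7.37 CPM with Sox11 K91A. The groups did not overlap, though the control libraries differed by 0.98 on the log2 scale. Its log2 fold change was 1.41 (SE 0.37, adjusted p = 0.04) and 1.62 (SE 0.36, adjusted p = 0.04). The first call was lost in all 6 fits that left out 1 library (log2 fold change 0.98 to 1.94, adjusted p 0.05 to 0.16, lowest without control replicate 1), and the second in 5 of 6 (1.18 to 2.16, adjusted p 0.049 to 0.32), standing without Sox11 replicate 1. *Kifc1* has a near-identical copy, *Kifc5b*, that covers 97.5% of its transcript at 98% identity, so the split of reads between them is uncertain. *Kifc5b* had 2.33 and 2.62 CPM in control, 2.47 and 2.84 CPM with Sox11, and 3.26 and 3.81 CPM with Sox11 K91A, and it passed in neither comparison (log2 fold change 0.1, adjusted p = 0.84, and 0.5, adjusted p = 0.3). The sum of both genes was 4.26 and 6.43 CPM in control, 10.2 and 10.2 CPM with Sox11, and 13.4 and 11.2 CPM with Sox11 K91A.

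*Kif20b*, a kinesin-6 protein of the midbody, had 0.823 and 0.571 CPM in control, 2.51 and 3.8 CPM with Sox11, and 2.48 and 2.37 CPM with Sox11 K91A, from 22 to 126 counts. The control libraries lay below the other 4. The log2 fold change was 2.2 (SE 0.45, adjusted p = 0.022) with Sox11 and 1.83 (SE 0.46) with Sox11 K91A, where the adjusted p of 0.05 just missed the threshold. The call with Sox11 was lost without control replicate 2 (adjusted p = 0.084), Sox11 replicate 2 (0.12), or Sox11 K91A replicate 1 (0.05) or 2 (0.051). The call appeared with Sox11 K91A without Sox11 replicate 1 (adjusted p = 0.044) or 2 (0.045).

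The remaining mitotic motors did not pass and had few reads. *Kif11*, the plus-end motor that pushes the spindle poles apart, had 62 and 70 counts in control, 73 and 102 with Sox11, and 99 and 93 with Sox11 K91A, with log2 fold changes of 0.53 (95% interval -0.22 to 1.28) and 0.65 (-0.08 to 1.39). *Kif2c*, *Kif14*, *Kif15* and *Kif23* had at most 25 counts in any library, and changes of their size could not be resolved at this depth. The 12 mitotic genes summed to 14.4 and 14.6 CPM in control, 22.2 and 20.1 CPM with Sox11, and 22.7 and 21.7 CPM with Sox11 K91A. Without *Kifc1* and *Kif20b* the other 10 summed to 11.7 and 10.2, 12 and 8.96, and 10.2 and 12 CPM in the same order, so the higher sums came from these 2 genes. Over the 11 genes tested, the median log2 fold change was 0.13 for Sox11 and 0.52 for Sox11 K91A.

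Of 23 other mitosis genes tested, 2 rose (8.7%) and 0 fell in each comparison, where 9.96% and 5.81% of all genes rose. *Ndc80*, of the kinetochore, had a log2 fold change of 2.24 (adjusted p = 0.032) and 2.38 (adjusted p = 0.039), and *Racgap1*, which partners the motor encoded by *Kif23* in cytokinesis, of 0.82 (adjusted p = 0.027) and 1.03 (adjusted p = 0.024). The proliferation marker *Mki67* had 1 and 0.649 CPM in control and between 0.241 and 0.343 CPM with either vector, log2 fold changes of -1.44 (adjusted p = 0.12) and -1.39 (adjusted p = 0.16) that did not pass. *Plk1*, a mitotic kinase, had 1.16 (adjusted p = 0.061) and 1.17 (adjusted p = 0.08). *Mki67* had the lowest log2 fold change of the 23 genes in both comparisons. Of the 23, 17 had a positive log2 fold change with Sox11 (median 0.63) and 15 with Sox11 K91A (median 0.48). With Sox11, 14 lay above and 2 below both control libraries, beside 30.9% and 30.6% of all genes. With Sox11 K91A, 13 lay above and 4 below, beside 31.2% and 30.7%.

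**Figure D2:**
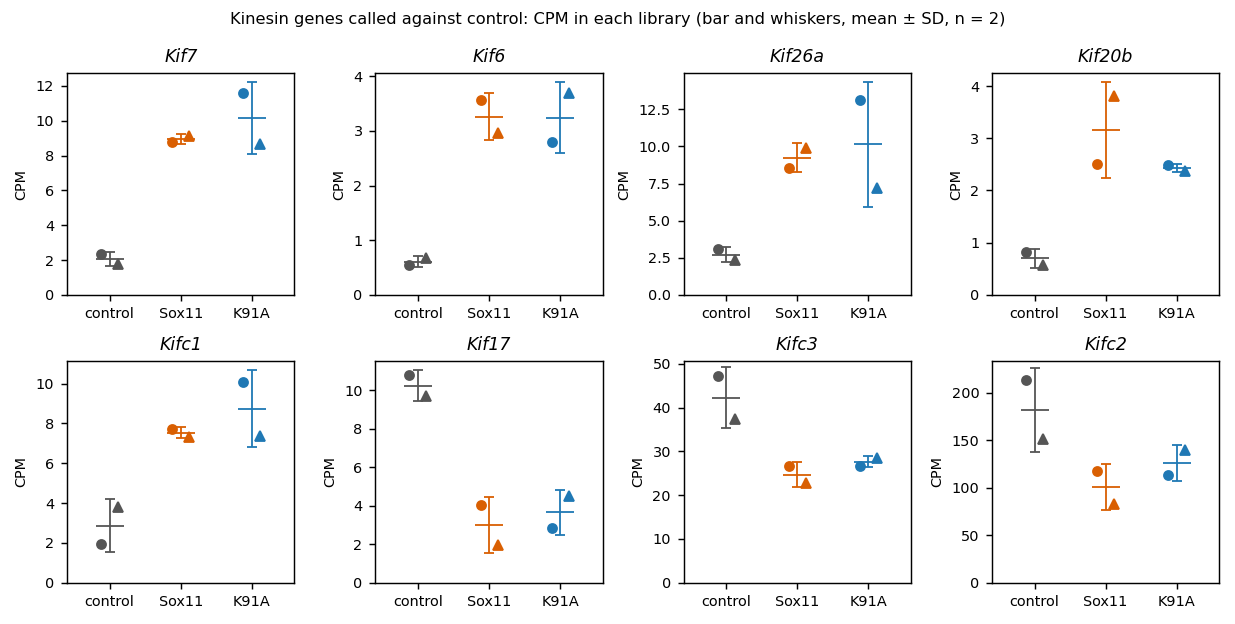
CPM (y axes, each from 0) of the 8 kinesin genes called in at least 1 comparison against control, in the control, Sox11 and Sox11 K91A libraries (circles, replicate 1; triangles, replicate 2; bar and whiskers, mean ± SD, n = 2). These genes were drawn because they were called. In all 8 panels both control libraries lie on 1 side of the 4 libraries with a Sox11 vector, and of all genes 30.9% lie above and 30.6% below both control libraries with Sox11, and 31.2% and 30.7% with Sox11 K91A; *Kif7*, for example, has at most 2.33 CPM in control and at least 8.68 CPM in the others.

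Among the 18 axonal transport kinesins *Kif17* alone passed, and it was lower with both vectors. This was 5.56% of the class, beside 10.2% of all genes called lower with Sox11 and 4.81% with Sox11 K91A. *Kif17*, a homodimeric kinesin-2 motor that carries NMDA receptor subunits into dendrites and also enters cilia, had 10.8 and 9.68 CPM in control, 4.04 and 1.96 CPM with Sox11, and 2.82 and 4.49 CPM with Sox11 K91A. The groups did not overlap, and the control libraries lay close together. The log2 fold change was -1.88 (SE 0.38, adjusted p = 0.022) and -1.52 (SE 0.36, adjusted p = 0.043). The first call was lost without Sox11 replicate 2 (log2 fold change -1.32, adjusted p = 0.14). The second was lost without control replicate 1 (adjusted p = 0.066) or 2 (0.085), or Sox11 K91A replicate 1 (0.4) or 2 (0.11). The neighbour *Sh2d5*, which shares 1.6% of the exonic bases of *Kif17* on the same strand, was also lower (log2 fold change -1.35, adjusted p = 0.03, and -1.27, adjusted p = 0.047).

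The 3 most abundant transport genes did not pass in either comparison. *Klc1* had a log2 fold change of 0 (SE 0.14, 95% interval -0.34 to 0.34) with Sox11 and 0.08 (SE 0.14, -0.25 to 0.42) with Sox11 K91A. *Kif5a* had -0.18 (SE 0.28, -0.85 to 0.48) and 0.03 (SE 0.28, -0.63 to 0.7), and *Kif5c* had 0.3 (SE 0.16, -0.08 to 0.69) and 0.22 (SE 0.16, -0.16 to 0.61). The intervals of *Klc1* exclude a change of 1.5-fold in either direction, and those of *Kif5a* do not. Over the 18 genes the median log2 fold change was 0.05 with Sox11 and 0.07 with Sox11 K91A.

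**Figure D3:**
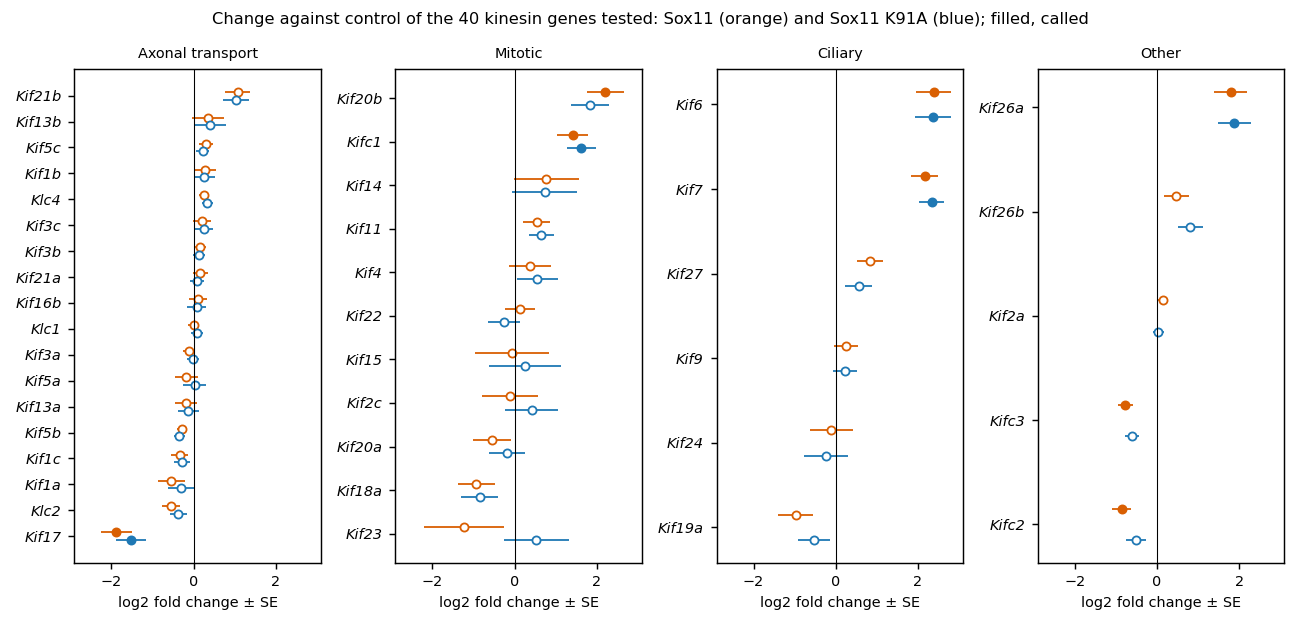
Log2 fold change against control with its SE (x axes) of the 40 kinesin genes tested, by class, for Sox11 (orange) and Sox11 K91A (blue), estimated by limma-voom from 2 libraries per group; filled points passed the threshold and open points did not. *Kif17* is the 1 filled transport gene, at -1.88 and -1.52, and the filled ciliary genes lie between 2.16 and 2.38.

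*Kif21b*, a kinesin-4 motor that also restrains microtubule growth, was just short of the threshold. It had 334 and 170 CPM in control, 457 and 549 CPM with Sox11, and 539 and 445 CPM with Sox11 K91A, and its groups did not overlap. Its log2 fold change was 1.07 (SE 0.31, adjusted p = 0.053) and 1.03 (SE 0.31, adjusted p = 0.077). Without control replicate 1 these became 1.56 (adjusted p = 0.017) and 1.53 (adjusted p = 0.021), and without control replicate 2 they became 0.58 (adjusted p = 0.078) and 0.56 (adjusted p = 0.11).

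The control libraries differed in this way across the transport class. In 17 of the 18 genes (94.4%) control replicate 2 was lower than replicate 1, with a median log2 difference of -0.42, beside 49.7% of all genes tested and a median of 0. The corresponding median over the 18 genes was -0.08 between the Sox11 libraries and 0 between the Sox11 K91A libraries. The differences between the control libraries followed transcript length over all genes. Their median ran from 0.41 in the 1550 genes with transcripts under 1000 bases, through 0.03 between 2000 and 3000 bases, to -0.63 in the 407 genes over 8000 bases. Between the Sox11 libraries the medians of these length classes lay from -0.09 to 0.08, and between the Sox11 K91A libraries from -0.1 to 0.05. *Kif1b*, *Kif21b* and *Kif1a*, with mean transcript lengths of 9431, 9157 and 7756 bases, differed by -0.82, -0.97 and -0.96 between the control libraries, and *Klc1*, at 2283 bases, by -0.15. The cause of the difference was not tested.

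The direction of the transport class against control turned with the control library used. With Sox11, 12 of the 18 genes had a positive log2 fold change (median 0.22) when control replicate 1 was left out, and 3 of 18 (median -0.16) when control replicate 2 was left out. With Sox11 K91A the numbers were 14 (median 0.3) and 4 (median -0.14). Against control replicate 2 alone, 6 of the 18 were called with Sox11, *Kif21b*, *Kif13b*, *Kif1b*, *Kif3c* and *Kif5c* higher and *Kif17* lower, beside 22.7% of all genes in that fit (11.7% higher). Against control replicate 1 alone there were 3, *Kif17*, *Kif1a* and *Kif13a*, all lower, beside 11% of all genes (6.1% lower). *Kif1a* had a log2 fold change of -0.06 against replicate 2 and -1.02 against replicate 1 (adjusted p = 0.048), and *Kif13b*, a kinesin-3 motor, of 0.95 (adjusted p = 0.042) and -0.36. *Kif17* was called with Sox11 against either control library, at -1.81 (adjusted p = 0.037) and -1.98 (adjusted p = 0.05). Over all genes with transcripts longer than 8000 bases, the median log2 fold change with Sox11 was 0.59 against control replicate 2 and -0.04 against control replicate 1.

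**Figure D4:**
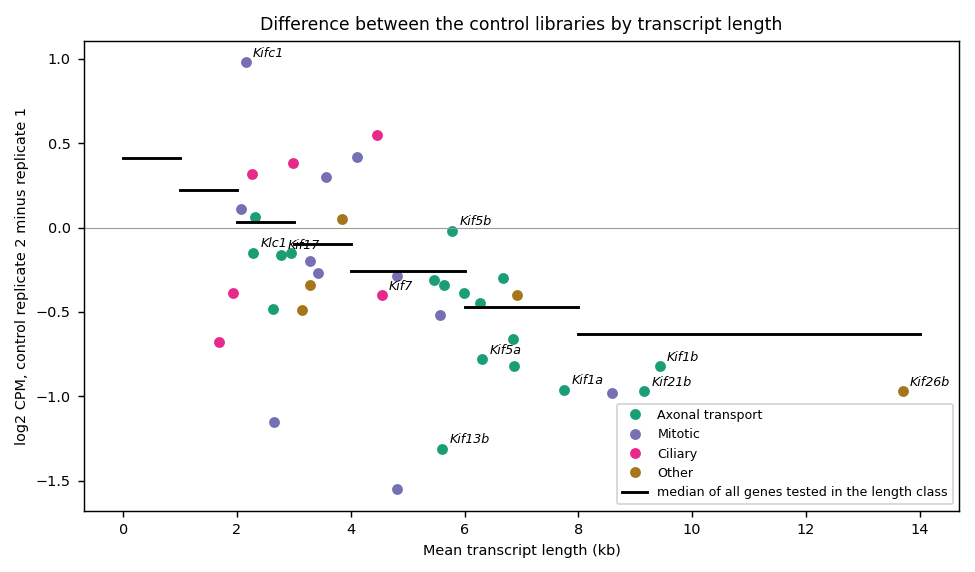
Log2 difference in CPM between control replicates 2 and 1 (y axis) against mean transcript length in kb (x axis) for the 40 kinesin genes tested, coloured by class; horizontal bars give the median of all genes tested in each length class, the last bar being that of all genes over 8000 bases. The bars fall from 0.41 to -0.63, and 17 of the 18 transport genes lie below 0.

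Of the 5 genes tested in the last class, *Kif26a* rose with both vectors (20%, beside 9.96% and 5.81% of all genes). The minus-end-directed motors *Kifc3* and *Kifc2* passed as lower with Sox11 only (40%, beside 10.2% of all genes). *Kif26a*, an atypical kinesin without ATPase activity, had 3.08 and 2.34 CPM in control, 8.55 and 9.92 CPM with Sox11, and 13.1 and 7.17 CPM with Sox11 K91A, with no overlap between control and the other libraries. Its log2 fold change was 1.8 (SE 0.4, adjusted p = 0.027) and 1.88 (SE 0.4, adjusted p = 0.034). Both calls were lost without control replicate 1 (adjusted p = 0.054 and 0.06) or 2 (0.11 and 0.13), the first also without Sox11 replicate 2 (0.14) and the second without Sox11 K91A replicate 1 (0.27). *Kif26b*, its relative, had 0.47 (adjusted p = 0.3) and 0.81 (adjusted p = 0.12).

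*Kifc3*, known from adherens junctions of epithelia, had 47.2 and 37.4 CPM in control, 26.7 and 22.7 CPM with Sox11, and 26.7 and 28.5 CPM with Sox11 K91A. *Kifc2*, a neuronal motor, had 213 and 151 CPM in control, 118 and 83.3 CPM with Sox11, and 113 and 140 CPM with Sox11 K91A. For both genes the control libraries were the highest. *Kifc3* had a log2 fold change of -0.77 (SE 0.18, adjusted p = 0.03) with Sox11 and -0.6 (SE 0.17, adjusted p = 0.071) with Sox11 K91A, and *Kifc2* of -0.86 (SE 0.24, adjusted p = 0.047) and -0.51 (SE 0.24, adjusted p = 0.2). The call of *Kifc3* was lost without Sox11 replicate 2 (adjusted p = 0.19) or Sox11 K91A replicate 1 (0.068) or 2 (0.066). The call of *Kifc2* was lost without control replicate 1 (adjusted p = 0.12), Sox11 replicate 2 (0.27), or Sox11 K91A replicate 1 (0.073) or 2 (0.073).

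Between the vectors, Sox11 K91A against Sox11, none of the 40 kinesin genes was called by limma-voom, none had an unadjusted p under 0.05, and edgeR and DESeq2 called none; of all genes, 0% were called by limma-voom and 108 (0.686%) had an unadjusted p under 0.05. The smallest unadjusted p belonged to *Kif23* (limma-voom unadjusted p = 0.11, adjusted p = 1), a cytokinesis motor with 18 and 2 counts in the Sox11 libraries and 25 and 18 with Sox11 K91A. Its log2 difference of 1.75 (SE 0.94, 95% interval -0.48 to 3.97) fell to 0.08 without Sox11 replicate 2, the library with 2 counts. *Kifc2* followed, with 0.35 (SE 0.24, -0.22 to 0.91, adjusted p = 1). For the genes called against control the intervals were -0.38 to 0.72 for *Kif7*, -0.74 to 0.72 for *Kif6*, -0.67 to 0.83 for *Kif26a*, -0.51 to 0.92 for *Kifc1*, -1.19 to 0.46 for *Kif20b*, -0.67 to 1.38 for *Kif17* and -0.27 to 0.61 for *Kifc3*. The intervals of *Kif20b* and *Kif17* thus reach past 1 log2 unit, and smaller differences were not detectable at this depth and replication.

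Of 26 kinesin adaptors and cargo receptors tested, 1 rose (3.85%) and 4 fell (15.4%) with Sox11, where 9.96% and 10.2% of all genes did. With Sox11 K91A, 1 rose and 1 fell (3.85% each), beside 5.81% and 4.81%. Of the 26, 20 had a negative log2 fold change with Sox11 (median -0.31) and 21 with Sox11 K91A (median -0.21). With Sox11, 4 lay above and 14 below both control libraries, beside 30.9% and 30.6% of all genes. With Sox11 K91A, 4 lay above and 15 below, beside 31.2% and 30.7%. *Hap1*, which links huntingtin to both motors, had 106 and 139 CPM in control, 44.7 and 30.2 CPM with Sox11, and 37.1 and 47.3 CPM with Sox11 K91A; its log2 fold change was -1.73 (adjusted p = 0.012) and -1.54 (adjusted p = 0.02). *Fez1*, a kinesin-1 adaptor, rose in both by 0.68 (adjusted p = 0.02 and 0.028), and *Clstn3*, a calsyntenin of the family that binds kinesin light chain, had -1.18 (adjusted p = 0.022) and -0.9 (adjusted p = 0.058). Of 24 dynein and dynactin genes tested, 0 rose and 4 fell (16.7%) with Sox11, where 9.96% and 10.2% of all genes did. With Sox11 K91A, 0 rose and 1 fell (4.17%), beside 5.81% and 4.81%. *Dync1i1*, the neuronal dynein intermediate chain, had 36.6 and 33.4 CPM in control, 8.95 and 3.38 CPM with Sox11, and 5.77 and 11.7 CPM with Sox11 K91A, with a log2 fold change of -2.71 (adjusted p = 0.014) and -2.1 (adjusted p = 0.028). *Ndel1*, a dynein regulator, had -0.63 (adjusted p = 0.034) and -0.5 (adjusted p = 0.082), *Dynll1*, a light chain, -0.74 with Sox11 (adjusted p = 0.048), and *Dync1li1*, a light intermediate chain, 0.49 with Sox11 K91A (adjusted p = 0.081).

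The summed level of 11 RGC markers was 13800 and 13100 CPM in control, 7990 and 4760 CPM with Sox11, and 6390 and 8490 CPM with Sox11 K91A. Most of this sum came from the neurofilaments *Nefl* (mean 6720 CPM in control, 3150 CPM with Sox11 and 3710 CPM with Sox11 K91A) and *Nefm* (3380, 1070 and 1350 CPM). Of the 11 markers, 5 fell with Sox11 (45.5%, beside 10.2% of all genes) and 3 with Sox11 K91A (27.3%, beside 4.81%), *Nefh*, *Nefm* and *Slc17a6* in both. *Thy1*, which encodes the surface protein used for purification, had a mean of 707 CPM (SD 25.5) in control. It had 153 CPM (SD 150) with Sox11 and 233 CPM (SD 112) with Sox11 K91A. The transcription factors *Isl1* (260 to 289 CPM), *Pou4f1*, *Pou4f2* and *Pou4f3* (54.1 to 86 CPM) and the RNA-binding protein gene *Rbpms* passed in neither comparison. Markers of other cell types summed to far less. The 7 genes of Müller glia and astrocytes summed to 105 to 108 CPM in control and 269 to 313 CPM with either vector, nearly all from *Glul* (97.2 to 310 CPM). Of the 5 tested, 2 had a positive and 3 a negative log2 fold change in each comparison. Their median was -1.66 with Sox11 and -1.1 with Sox11 K91A. Progenitor markers (8 genes) summed to 39.9 and 49.2 CPM in control and 19.9 to 28.7 CPM with either vector, mostly a difference in *Nes* (means of 36.4, 13.2 and 14.8 CPM in control, Sox11 and Sox11 K91A), whereas *Sox2* had 4.14, 6.79 and 9.37 CPM and 4 of the 8 had a positive log2 fold change with Sox11. Amacrine and horizontal cell markers (8 genes) reached 239 and 101 CPM in control and 68.8 to 131 CPM otherwise. *Gad2* was the main contributor (means of 106, 36.6 and 38.4 CPM), whereas *Tfap2a* (1.79, 4.58 and 6.1 CPM) and *Tfap2b* (6.72, 13.3 and 21.2 CPM) had higher means with both vectors, and with Sox11 K91A 6 of the 8 had a positive log2 fold change (median 1.19). Microglia (6 genes) stayed at or below 1.43 CPM, photoreceptors and bipolar cells (10 genes) at or below 2.85 CPM, and vascular cells and fibroblasts (9 genes) at 15.3 to 29.3 CPM. The part of cell composition in the results for the kinesin genes was not tested.

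The promoters of the genes called against control are shown for the sequence around the start of each gene, since Sox11 binds DNA. RefSeq entries on GRCm38.p6 were matched for 34 of the 44 kinesin genes and 6 of the 8 called, all but *Kifc2* and *Kifc3*. The 120 bases printed run 5′ to 3′ on the gene's strand and end 41 bases before the RefSeq start; they hold no annotated exon, and capitals mark CCAAT or its reverse complement, a motif known from promoters of cell cycle genes.
*Kif7*, chr7:79715748-79715867, minus strand: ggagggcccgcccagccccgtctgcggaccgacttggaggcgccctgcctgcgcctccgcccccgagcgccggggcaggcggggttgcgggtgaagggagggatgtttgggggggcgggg
*Kif6*, chr17:49615012-49615131, plus strand: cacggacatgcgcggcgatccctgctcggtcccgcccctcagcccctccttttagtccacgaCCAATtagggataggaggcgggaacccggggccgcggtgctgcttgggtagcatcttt
*Kif20b*, chr19:34922198-34922317, plus strand: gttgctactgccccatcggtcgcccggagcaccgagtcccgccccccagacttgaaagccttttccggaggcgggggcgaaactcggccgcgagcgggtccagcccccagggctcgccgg
*Kifc1*, chr17:33890674-33890793, minus strand: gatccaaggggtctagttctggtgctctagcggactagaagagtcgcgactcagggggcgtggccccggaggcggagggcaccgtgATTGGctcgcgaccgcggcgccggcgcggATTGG
*Kif26a*, chr12:112146048-112146167, plus strand: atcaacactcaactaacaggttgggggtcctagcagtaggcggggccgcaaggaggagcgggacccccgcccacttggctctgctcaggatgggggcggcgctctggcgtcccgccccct
*Kif17*, chr4:138262091-138262210, plus strand: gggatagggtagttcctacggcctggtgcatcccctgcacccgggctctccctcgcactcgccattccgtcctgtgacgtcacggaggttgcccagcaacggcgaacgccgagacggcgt

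All 6 windows are rich in G and C, and the 250 bases before the start had 58.4% (*Kif6*) to 74.4% (*Kif7*) G and C. 3 runs of letters were searched on both strands of those 250 bases: AACAAT or AACAAAG, the core bound by SOX proteins, TTTGAA, a cell cycle element, and CCAAT; no form holds another within it. None of the 6 promoters held either SOX form, which 13.8% of 32851 promoters of the same length held, and none held TTTGAA, held by 16% of all. CCAAT was found in *Kifc1* at 2 places and in *Kif6* at 1, and 33.8% of all promoters held it. Over the 38 promoters of the 34 genes matched, 5 held a SOX form, 8 TTTGAA and 17 CCAAT. These are matches of letters in a short window, and the start of *Kif17* in RefSeq lies inside the gene as GENCODE draws it, which spans chr4:138250435-138301967.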

How the data were processed

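Reads were aligned by the authors with STAR (genome build mm10), and RSEM gave the count of each gene; versions, annotation and use of strand are not given in the sources used here. The deposited tables, 1 per library, give RSEM expected counts, which are not normalized, and the deposited TPM values, which RSEM scales to a fixed total per library. Replicates were not pooled. Symbols and coordinates came from GENCODE M21 (GRCm38), which named 98% of the Ensembl genes. Kinesin genes and all lists were chosen with earlier results of these data known.

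Expected counts were rounded, genes kept with filterByExpr (edgeR 4.0.16), and libraries scaled by TMM (factors 0.985 to 1.04). All 15747 genes kept were tested with limma-voom (limma 3.58.1, R 4.3.3) on all 6 libraries, two-sided, with Benjamini-Hochberg adjustment over all genes; a gene was called at an adjusted p under 0.05 and a fold change above 1.2. All adjusted p-values are limma-voom's unless another tool is named. The fit was tested on simulated data. CPM values use TMM-scaled library sizes. Depth was 27521982 to 37061718 counts per library, and genes with few counts have the widest errors.

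Genes named with full statistics were all kinesins called against control, the 3 transport genes of highest mean TPM, the 2 kinesins of smallest unadjusted p between the vectors, and in each further list up to 3 genes of smallest p; others (*Kif21b*, *Kif1a*, *Kif1b*, *Kif11*, *Kif13a*, *Kif13b*, *Kif26b*, *Kif3c*, *Mki67* and *Dynll1*) were named after their values were seen. Alternatives were edgeR's quasi-likelihood test, DESeq2 (1.42.0), sample quality weights, limma-trend on log2(TPM + 1), DESeq2 size factors or library size alone, other filters and fold thresholds, a fit of the compared groups alone, no rounding, a replicate block, leaving out each library or both that stood apart, and a term for those. Python 3.11.15 with pandas 2.3.3 was used for tables and matplotlib 3.10.9 for plots.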

Additional observations from a re-analysis of the deposited data

How the results depend on the processing

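No kinesin gene was called between Sox11 K91A and Sox11 under any setting. Against control, kinesin genes rose and fell in number with the setting, from 8 with Sox11 and 5 with Sox11 K91A, of which 1 and 1 were transport and 2 and 1 mitotic genes. The cause of the changes was not tested. DESeq2 called 9 and 9 (transport 2 and 3, mitotic 2 and 2; all genes 4332 and 3144, and 2 genes between the vectors), and edgeR 7 and 5 (transport 1 and 0, mitotic 2 and 2). Quality weights, which gave the control libraries 0.53 and 0.47 and the Sox11 K91A libraries 2.38 and 2.36, left 1 and 2 (transport 0 and 1, mitotic 0 and 0; all genes 979 and 1400). Limma-trend left 6 and 2 (transport 1 and 0, mitotic 2 and 0; all genes 2244 and 936). Library size alone gave 9 and 5 (transport 2 and 1), all genes with at least 1 count 8 and 5 (transport 2 and 1), and at least 10 counts in every library 8 and 6 (mitotic 2 and 2). The fit of the compared groups alone gave 5 and 5 (mitotic 1 and 1; all genes 1598 and 1732). Leaving out both libraries that stood apart gave 7 and 10 (transport 2 and 5, mitotic 1 and 1; all genes 2094 and 4108), and a term for them 11 and 9 (transport 4 and 2, mitotic 2 and 2; all genes 4562 and 2894). DESeq2 size factors, no rounding, no fold threshold and a fold above 1.5 left 8 and 5. Leaving out each library in turn gave 0 to 11 and 0 to 7 kinesin genes, 0 to 6 and 0 to 4 transport genes, and 0 to 1 and 0 to 2 mitotic genes, with 0 to 3753 and 0 to 2563 of all genes. The log2 fold change of *Sox11* ran from 5.05 to 5.70 and from 4.66 to 5.42 in those fits, and its call was lost without Sox11 replicate 2 (adjusted p = 0.056) and without control replicate 2 (0.053). The sign turned, with no call, for *Kif20a* and *Kif23* with Sox11 (0.11 and 0.28) without both libraries that stood apart, *Kif2a* with Sox11 K91A (-0.001) by library size, *Klc1* with Sox11 in limma-trend (0.077) and the fit of compared groups (0.001), and *Kif5a* with Sox11 K91A in edgeR (-0.016), DESeq2 (-0.028), without both libraries (-0.35) and with the term (-0.28). In fits without 1 library it turned with Sox11 for *Kif4* (-0.12 to 0.89), *Kif26b* (-0.05 to 0.93), *Kif23* (-2.73 to 0.45), *Kif5a* (-0.57 to 0.21, among them 0.06) and *Klc1* (-0.076 to 0.076, among them 0.057 and 0.003), and with Sox11 K91A for *Kif14* (-0.044) and *Kif5a* (-0.35 to 0.43, among them -0.028).

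Same-numbered replicates did not pair across all 3 groups. The correlation of their deviations from group means was 0.231 for control and Sox11, -0.033 for control and Sox11 K91A, and -0.232 for both vectors. On the second principal component, replicate 2 of control and of Sox11 lay together, at -50.1 and -50. With the replicate block 8 and 3 kinesin genes were called (transport 2 and 0, mitotic 1 and 0). With the pairing of the Sox11 K91A libraries crossed, chosen after seeing the data, 10 and 8 were called (transport 3 and 1, mitotic 2 and 2; all genes 4076 and 2753).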

Other observations

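RSEM averages transcript length over the isoforms it assigns, and this length differed between libraries for some kinesin genes, which enters TPM and not CPM. *Kif4*, a chromosome-associated mitotic motor, had a mean transcript length of 4983 bases in 4 libraries, 1971 in Sox11 replicate 2 and 2747 in Sox11 K91A replicate 1, from 20 to 43 counts. *Kif6* ran from 1927 to 2509 bases and *Kifc1* from 1804 to 2326. *Kif20b*, *Kif26a* and *Kifc2* kept a single length in all libraries. The standard deviation that RSEM gives for its assignment of reads between genes was at most 1.6% of the count for *Kifc1*, 1.9% for *Kif7* and 6.5% for *Kif20a*, the highest of the 43 kinesin genes with counts.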
